A study of Mus musculus with 12 samples.

Results

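NIH-3T3 cells, an immortalised line of mouse fibroblasts, were compared after 60 and after 30 min of labelling with 4-thiouridine (4sU). The aim was to find which transcripts had first changed in counts by the later time and how much new RNA each had gained. The comparison uses 4 of the series' 12 libraries, replicates A and B of each of these durations. All cells were labelled WT and grown in the same medium, 4sU was given at 800 µM, and all RNA was treated with iodoacetamide. The series also holds 15, 90 and 120 min libraries, 2 of each, which entered the fit of the counts, and 2 unlabelled libraries, which did not. Nothing in the labels says whether A and B were separate cultures, so p-values measure only the spread between these libraries. The title of the series gives its question as the effect of labelling duration on quantification.

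Cells incorporate 4sU in place of uridine into RNA as it is transcribed. In SLAM-seq, iodoacetamide alkylates the incorporated 4sU, which is then read as cytosine. The new-to-total ratio (NTR), the part of a gene's RNA made since labelling began, is estimated from these conversions. The values used here are the authors' estimates, deposited with an interval, and not direct shares of converted reads. At steady state the NTR of a short-lived transcript climbs quickly while its total level stays level, because old molecules are replaced as fast as they are lost. Total counts at different durations are used here as the measure of level. Whether reads of labelled RNA were counted as fully as other reads was not tested, so a changed count need not be a changed amount of RNA. Transcripts of immediate early genes, cyclins and many signalling regulators are known for rapid turnover, and AU-rich elements in their 3′ UTRs, built around the pentamer ATTTA, recruit factors that shorten the poly(A) tail.

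The 4 libraries held 11758117 (30 min A), 9917026 (30 min B), 10093027 (60 min A) and 13224762 reads (60 min B) over 17419 genes, of which 11526 had enough counts to be tested. All 12 fibroblast markers examined, among them Col1a1, Fn1 and Vim, were above 1 CPM (reads of a gene per 1000000 counted reads), and their summed level lay between 17070 and 17690 CPM at 30 min and between 17320 and 17980 CPM at 60 min. Summed markers of epithelial, endothelial, immune, muscle, adipocyte and neuronal cells did not exceed 9.08 CPM in any of the 4 libraries. Some of these markers were not among the 17419 genes, so their sums leave them out. Present were 2 of 5 epithelial, 3 of 4 immune, 1 of 3 muscle and 2 of 3 neuronal markers, and all endothelial and adipocyte ones.

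From 30 to 60 min, 23 of the 11526 genes changed (0.200% called, edgeR's quasi-likelihood test, Benjamini-Hochberg adjusted p below 0.05). Of these, 21 fell (0.182%) and 2 rose (0.0174%). In each of the 23 genes both 60 min libraries lay on the same side of both 30 min libraries in CPM. The share of all tested genes separated in this way was not counted, and the calls come from the same counts. Actb, Eef1a1, Jun, Ier2 and Fos, which were not called, were separated as well. The falls were small, from a log2 fold change of -0.43 for Pcf11 and F3 to -0.16 for Dhx9, with a median of -0.27. The genes that fell include early response regulators (Sgk1, Klf6, Ier5, Fosl2, Zfp36l2), Yap targets (F3, Ccn2, Amotl2) and cyclins (Ccnt1, Ccnf), and both that rose are nuclear long non-coding RNAs (Lncpint, Kcnq1ot1).

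The number of calls depended on single libraries and on the spread used. Without 60 min replicate A only Slf2 was called (log2 fold change -0.39, edgeR adjusted p = 0.0121), and without 30 min replicate A or B 7 and 8 genes were. DESeq2 called 12 genes, all lower (0.290% of the 4137 it gave an adjusted p). It gave none to Lncpint or Kcnq1ot1, so it did not test the rises at this threshold. A fit that also held the unlabelled libraries called 0, with 480 genes at an unadjusted p under 0.05. All 23 genes kept their direction in each of these fits that gave them a value.

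The serum- and glucocorticoid-induced kinase gene Sgk1 had the smallest adjusted p. Its level was 747.5 and 791.3 CPM in the 30 min libraries (A, then B, as for all pairs of values here) and 600.5 and 667.3 CPM in the 60 min libraries. Every 60 min value was thus below every 30 min value, and the fitted level fell by 17.5% (log2 fold change -0.28, SE 0.0388, edgeR adjusted p = 0.00024). Its NTR was 47.46% and 47.26% at 30 min and 87.40% and 89.64% at 60 min, so that nearly all Sgk1 RNA present at 60 min carried label. New Sgk1 RNA, taken as the NTR times the CPM, went from 364.3 ± 13.6 to 561.5 ± 51.8 CPM (SD, n = 2), a gain of 197.1 CPM. Old RNA, the remainder, went from 405.0 ± 17.4 to 72.4 ± 4.62 CPM. It dropped by 332.6 CPM, which the new RNA did not make up.

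Klf6, a zinc finger transcription factor, stood at 196.3 and 191.5 CPM at 30 min and at 153.5 and 162.4 CPM at 60 min (log2 fold change -0.29, SE 0.0472, edgeR adjusted p = 0.00126). Ier5, an immediate early gene, went from 170.5 and 174.8 to 143.4 and 143.0 CPM (-0.27, SE 0.0465, adjusted p = 0.00234). At 60 min most of the RNA of both was new. The NTR reached 85.92% and 87.64% for Klf6 and 91.93% and 92.45% for Ier5, and 20.4% of the old Klf6 RNA and 13.6% of the old Ier5 RNA present at 30 min was left at 60 min. The latter was the smallest such share of the 21 genes. Fosl2, an AP-1 subunit, measured 306.4 and 307.0 CPM at 30 min and 265.3 and 269.8 CPM at 60 min (-0.20, adjusted p = 0.0282). It had the largest NTR gain of the 21 genes, 49.8 percentage points, from 38.50% and 38.68% to 88.02% and 88.73%. Zfp36l2, whose protein binds AU-rich elements and promotes mRNA decay, went from 447.0 and 448.9 to 386.9 and 401.6 CPM (-0.18, adjusted p = 0.0324). Dusp4, a phosphatase that inactivates MAP kinases, went from 231.5 and 230.2 to 195.2 and 207.0 CPM (-0.20, adjusted p = 0.0321). In these genes the 2 libraries of a duration differed by less than the durations did.

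**Figure D1:**
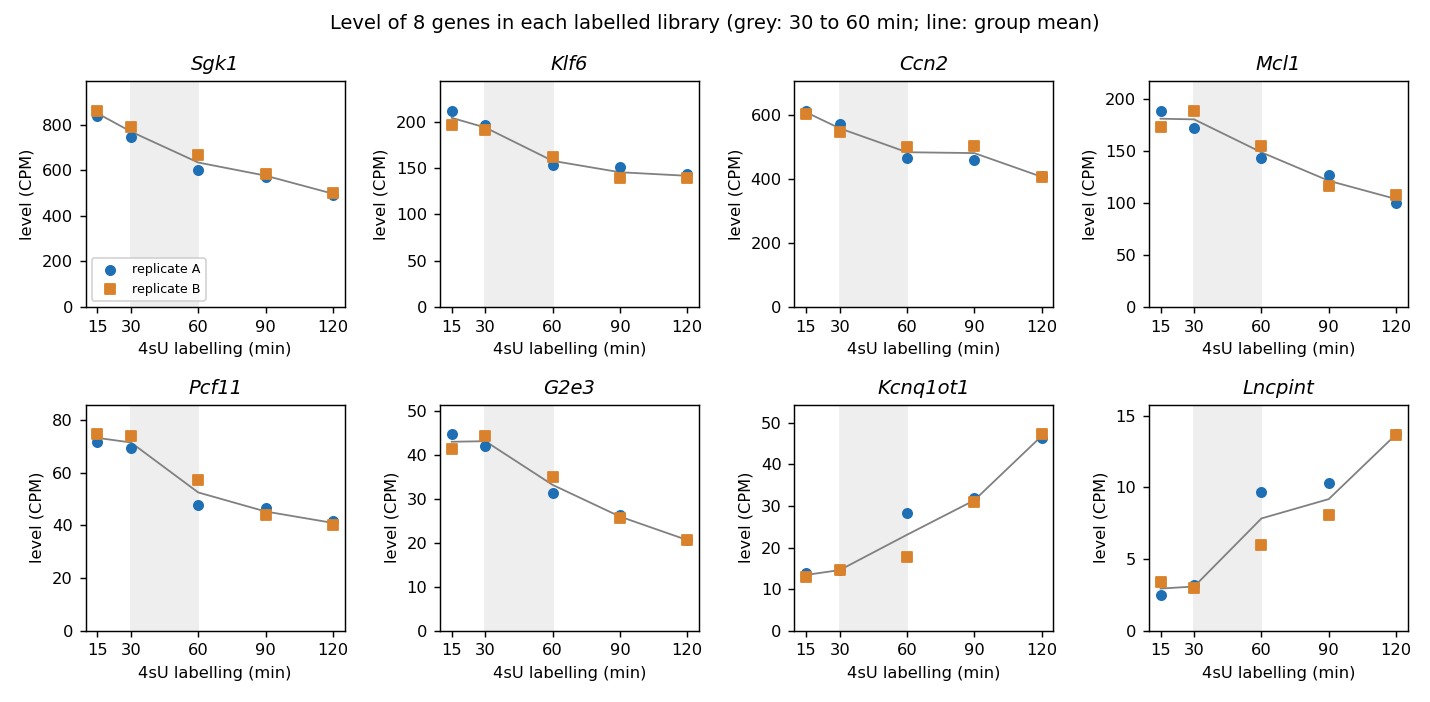
Level in CPM (vertical axis, from 0) against labelling time in min for 6 genes that fell and 2 that rose, with replicate A as circles, replicate B as squares, the group mean as a line and the interval from 30 to 60 min in grey. Both 60 min libraries of Sgk1 (600.5 and 667.3 CPM) lie below both 30 min libraries (747.5 and 791.3 CPM), while those of Lncpint (9.67 and 5.996 CPM) lie above (3.19 and 2.98 CPM).

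The Yap targets that fell were F3, Ccn2 and Amotl2. F3 encodes tissue factor, which starts blood coagulation, and its level was 44.08 and 41.37 CPM at 30 min and 29.20 and 34.03 CPM at 60 min, and the fitted level fell by 25.6% (log2 fold change -0.43, SE 0.0865, edgeR adjusted p = 0.0181). Ccn2, a matricellular protein gene also known as connective tissue growth factor, went from 571.5 and 546.8 to 467.3 and 501.5 CPM (-0.21, SE 0.0393, adjusted p = 0.00902). Amotl2, a scaffold that binds Yap, went from 361.4 and 347.2 to 281.7 and 320.7 CPM (-0.23, SE 0.04375, adjusted p = 0.00902). Without 60 min replicate A the value for Amotl2 was -0.14 (edgeR adjusted p = 0.607). Ccn2 gained 149.5 CPM of new RNA while its old RNA dropped by 224.3 CPM. Amotl2 gained 111.3 CPM while its old RNA dropped by 164.4 CPM. F3 gained 6.85 CPM while its old RNA dropped by 17.97 CPM, so that its new RNA replaced the smallest part of its loss among these Yap targets.

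Pcf11, a factor for 3′ end cleavage and transcription termination, and Ccnt1, the cyclin subunit of the elongation kinase P-TEFb, act on transcription itself. Pcf11 measured 69.22 and 73.79 CPM at 30 min and 47.94 and 57.12 CPM at 60 min, and the fitted level fell by 25.8% (log2 fold change -0.43, SE 0.0686, edgeR adjusted p = 0.00126). Its NTR went from 18.92% and 19.09% to 49.79% and 63.85%, a wide gap between the 60 min replicates. Ccnt1 went from 82.46 and 80.06 to 62.14 and 68.36 CPM (-0.31, SE 0.0623, adjusted p = 0.0156). Cited2, a coregulator that binds CBP and p300, went from 160.8 and 161.9 to 138.5 and 141.8 CPM (-0.20, adjusted p = 0.0391). The helicase gene Dhx9 had the smallest fall, from 476.4 and 478.6 to 418.2 and 438.6 CPM (-0.16, SE 0.0355, adjusted p = 0.0498). It also had the lowest NTR of the 21 genes, 16.90% and 18.35% at 60 min, and kept 80.8% of its old RNA.

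The next genes are described by what each does, and not as a group that was tested. G2e3, a ubiquitin ligase gene, measured 42.07 and 44.36 CPM at 30 min and 31.37 and 35.15 CPM at 60 min (log2 fold change -0.37, SE 0.0788, edgeR adjusted p = 0.0314). Fbxo5, whose product Emi1 inhibits the anaphase-promoting complex, went from 63.94 and 69.62 to 52.28 and 56.37 CPM (-0.29, SE 0.0660, adjusted p = 0.0498). Ccnf, the F-box protein cyclin F, went from 93.44 and 86.72 to 75.36 and 74.13 CPM (-0.27, SE 0.0560, adjusted p = 0.0192). The F-box gene Fbxo30 went from 63.02 and 67.23 to 47.05 and 55.99 CPM (-0.32, adjusted p = 0.0333). Without 60 min replicate A the value for Fbxo30 was -0.21 (edgeR adjusted p = 0.691). Wsb1, a substrate receptor of a ubiquitin ligase, went from 134.3 and 135.5 to 108.5 and 121.0 CPM (-0.23, adjusted p = 0.0391). Slf2, which links the SMC5/6 complex to damaged DNA, went from 133.3 and 139.3 to 111.7 and 104.2 CPM (-0.34, SE 0.0563, adjusted p = 0.00178). Its NTR of 44.12% and 47.29% at 60 min was among the lower ones of the 21 genes.

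The remaining genes that fell were Mcl1, an inhibitor of apoptosis, and Slc38a2, a transporter of neutral amino acids. Mcl1 measured 172.2 and 187.8 CPM at 30 min and 142.5 and 154.3 CPM at 60 min (log2 fold change -0.27, SE 0.0523, edgeR adjusted p = 0.00943). Slc38a2 went from 560.7 and 582.8 to 486.7 and 496.2 CPM (-0.22, SE 0.0377, adjusted p = 0.00234), gaining 133.7 CPM of new RNA while its old RNA dropped by 214.0 CPM.

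All 21 genes that fell hold ATTTA in the annotated 3′ UTR of a transcript of GENCODE M21 (GRCm38). The following stretches of 29 bases are shown because they carry that pentamer in genes described above, with ATTTA in capitals, 5′ to 3′ on the gene's strand. They lie at chr3:121734918-121734946 (F3, plus strand), chr5:32156865-32156893 (Fosl2, plus), chr17:84184918-84184946 (Zfp36l2, minus), chr11:79240181-79240209 (Wsb1, minus), chr10:21999424-21999452 (Sgk1, plus) and chr3:95660882-95660910 (Mcl1, plus).
F3: gtatatATTTAcataaaATTTAaaggttt
Fosl2: attgacATTTAttttattATTTAttttaa
Zfp36l2: aaaaactATTTAacttATTTAttatcttg
Wsb1: ggctcagcagATTTATTTAattggaatcc
Sgk1: tttggaagataaATTTAtgtgtagactgt
Mcl1: gaaaacatgtgtATTTAtgaaggtggact

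In F3, Fosl2, Zfp36l2 and Wsb1 the pentamer occurs 2 times within the stretch, and in Wsb1 the copies overlap. Only the gene's own strand was searched, since the element is read in the RNA. Over the whole 3′ UTR the pentamer occurs 7 times in F3 (809 bases), 14 times in G2e3 (4264 bases) and 1 time each in Amotl2, Ccnf, Cited2 and Dhx9. ATTTA was present in 70.7% of the 11048 tested genes with an annotated 3′ UTR, and in 86.6% of the 3803 whose UTR length lay between the quartiles of the genes that fell. The genes that fell had a median of 2.74 pentamers per kb, beside 1.36 over all tested genes and 1.55 over those 3803. Their median 3′ UTR was 1712 beside 1177 bases long, with a median of 32.3% U beside 29.3%. Genes that were not called reached such densities too, with 4.91 per kb in Fos, 4.53 in Myc, 4.12 in Junb, 3.51 in Eef1a1 and 3.24 in Jun. Actb had 1.46, and Gapdh and Ier2 had 0. The longer nonamer TTATTTATT was found in 2 of the 21 (9.52%) and in 8.27% of all. These letters are a description of the annotated UTRs and no evidence that any factor binds them.

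Both genes that rose are non-coding. Lncpint, a p53-regulated long intergenic RNA at chr6:31082565-31220488 (GRCm38, minus strand), measured 3.19 and 2.98 CPM at 30 min and 9.67 and 5.996 CPM at 60 min, a log2 fold change of 1.30 (SE 0.225, edgeR adjusted p = 0.00234). It rests on a mean of 61.5 reads per library, and its NTR went from 25.91% and 24.90% to 100% and 90.25%. Kcnq1ot1, the paternally expressed RNA of the Kcnq1 imprinted domain, is annotated as a single exon at chr7:143203458-143296549 (minus strand) within Kcnq1 on the other strand. Its level was 14.67 and 14.52 CPM at 30 min and 28.41 and 17.76 CPM at 60 min (0.62, SE 0.134, adjusted p = 0.0314), so that most of the rise was in 60 min replicate A. Without that library the log2 fold change of Kcnq1ot1 was 0.28 (edgeR adjusted p = 0.8), and without 60 min replicate B it was 0.96 (5.99e-06). That of Lncpint without 60 min replicate A was 0.95 (edgeR adjusted p = 0.358). The NTR of Kcnq1ot1 went from 15.09% and 21.49% to 52.03% and 57.21%. Both loci overlap genes on the opposite strand, and Lncpint also overlaps 3 annotated genes on its own strand. No source used here states whether counting used strand, and reads of Kcnq1ot1 and unspliced Kcnq1 cannot be told apart on that basis.

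Nearly every transcript gained new RNA in the interval. Over the 9061 genes with a mean of at least 100 reads in the 4 libraries, the median NTR went from 5.21% ± 0.127 at 30 min to 15.5% ± 0.396 at 60 min (SD, n = 2), a gain of 10.2 ± 0.416 percentage points. The gain was above 0 in 9005 genes, and the middle 50% of genes gained between 5.76 and 17.5 points. In 5343 genes (59.0%) the authors' 90% intervals of both 60 min libraries lay above those of both 30 min libraries. New RNA made up 5.74% ± 0.109 of the counted reads at 30 min and 14.6% ± 0.451 at 60 min. If RNA were made and lost at constant rates and labelled evenly from the first minute, an NTR measured at 30 min fixes the value at 60 min, with a median of 10.2%. The measured value was above it in 8054 genes (88.9%).

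The genes that fell had renewed much more of their RNA. Their median NTR was 30.6% at 30 min and 68.1% at 60 min (range 17.6% to 92.2%), a median gain of 38.1 points (9.06 to 49.8), and all 21 were above the value that constant rates give. By 60 min a median of 37.1% of their 30 min old RNA was left, beside 89.3% over the 9061 genes. Their new RNA made up a median of 59.3% of the old RNA lost, beside 94.5% over all genes that lost old RNA. NTR and count come from the same reads, and a lower count enters the old and the new RNA alike, so these shares describe the genes that fell and are not an independent test.

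**Figure D2:**
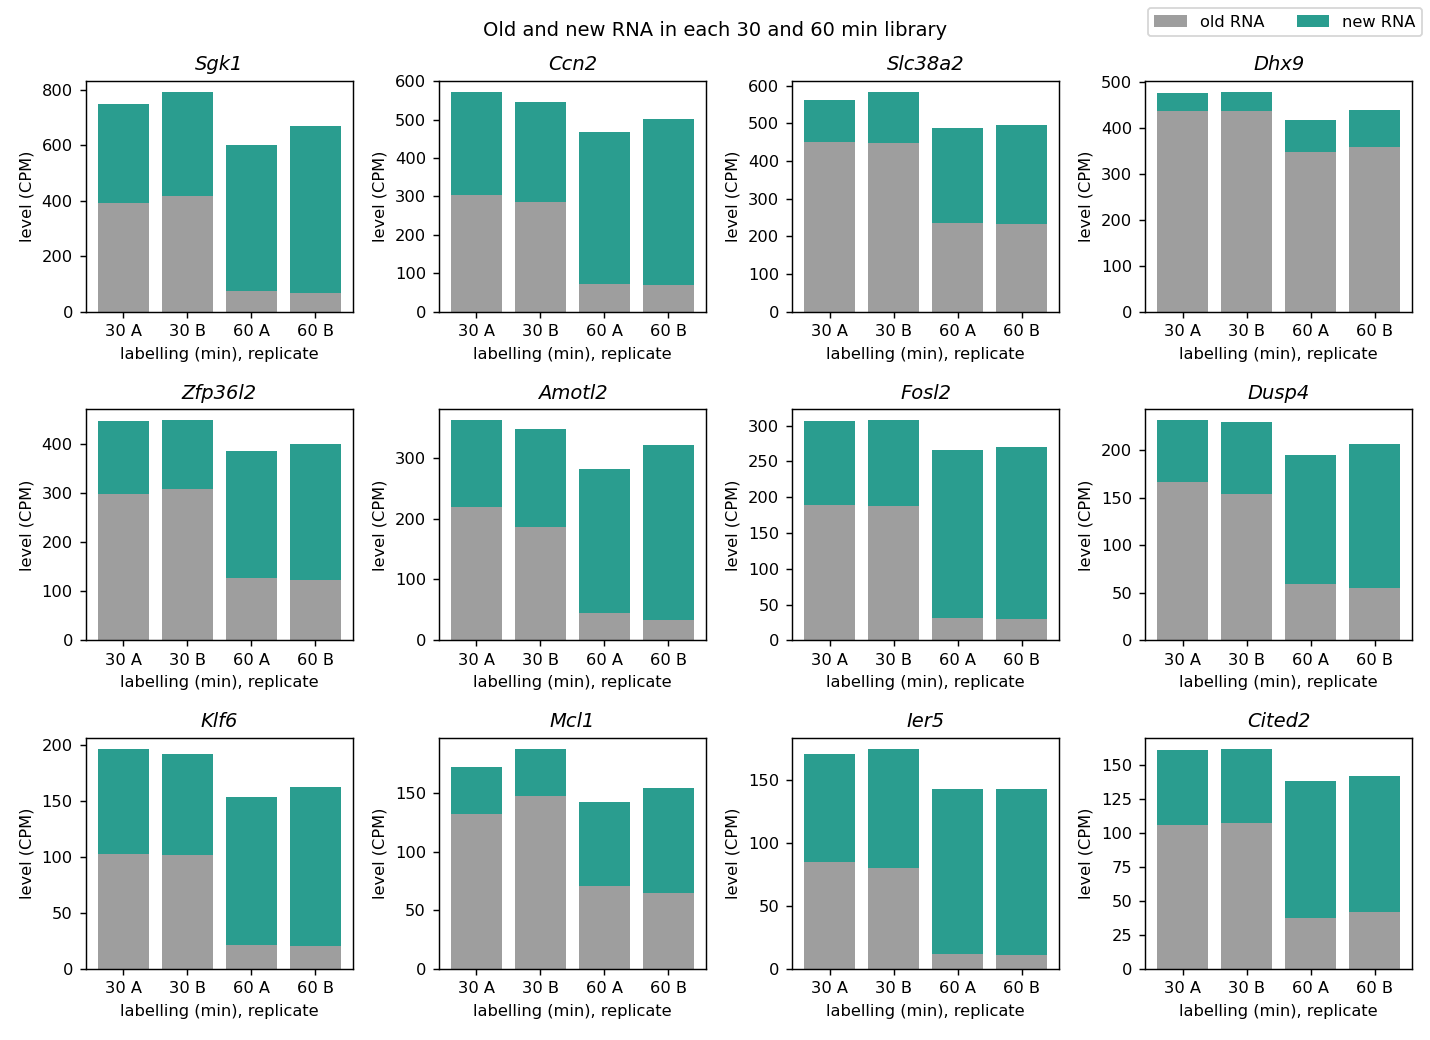
Old RNA (grey) and new RNA (green) in CPM, stacked from 0 for each 30 and 60 min library, for 12 of the genes that fell. In Sgk1 the old part drops from a mean of 405.0 to 72.4 CPM while the new part grows from 364.3 to 561.5 CPM, and in Dhx9 most of the RNA is still old at 60 min.

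The median log2 fold change fell from decile to decile as the NTR rose. When the 9061 genes were ranked by their 60 min NTR and split in deciles, the median log2 fold change of CPM plus 1 was 0.040 ± 0.0027 in the lowest decile (median NTR 4.85%) and -0.106 ± 0.0215 in the highest (54.9%), where the SD is over the 60 min libraries set against the same 30 min mean. Both 60 min libraries showed it, with -0.121 (A) and -0.091 (B) in the highest decile. Of the 21 genes that fell, 20 were in the highest decile, and Dhx9 was in the sixth. The highest decile held 906 genes with an NTR of at least 42.5%, of which 773 (85.3%) had a log2 fold change below 0, beside 49.4% of all tested genes. Kcnq1ot1 was in it too. The deciles also differed in depth and length, with a median of 722 reads and 2235 bases in the lowest and 322.1 reads and 4198 bases in the highest, and their part in the trend was not tested. The NTR used for the ranking comes from the same reads as the 60 min counts, so the trend is not an independent test.

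**Figure D3:**
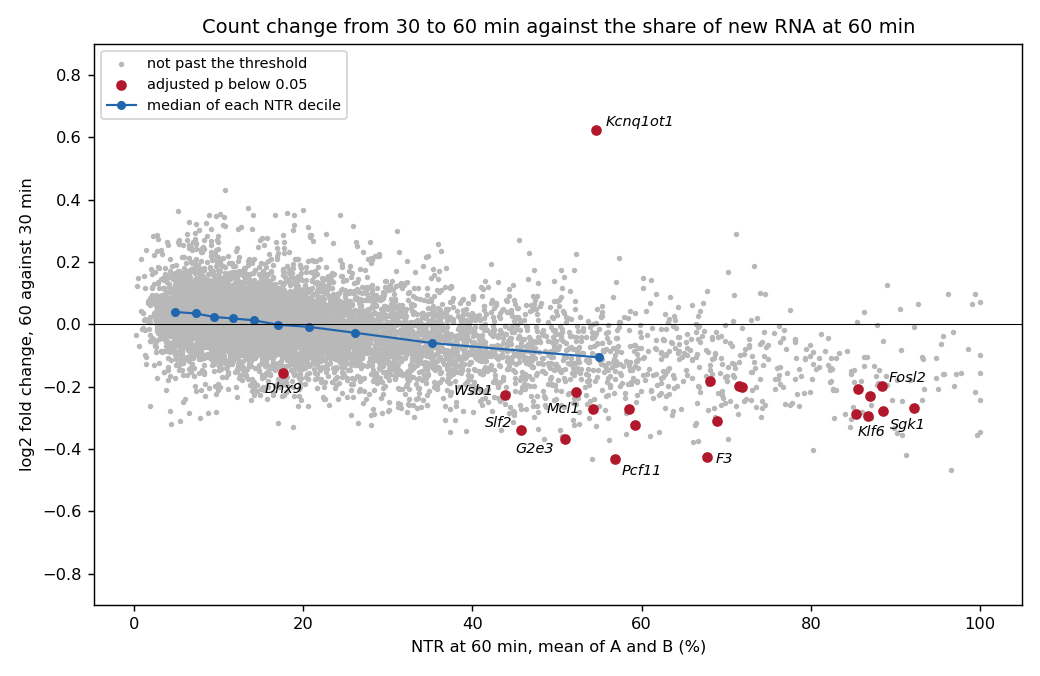
Log2 fold change of 60 against 30 min (vertical axis) against the mean NTR of the 60 min libraries in percent (horizontal axis) for the 9061 genes with a mean of at least 100 reads. Red points are the 22 called genes among them, and the blue line joins the decile medians, which run from 0.040 to -0.106.

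Not every gene of high turnover passed the threshold. Myc, with an NTR of 97.00% and 97.21% at 60 min, went from 154.5 and 133.9 to 135.2 and 124.6 CPM, groups that overlap (log2 fold change -0.16, edgeR adjusted p = 0.467). Jun (-0.13, adjusted p = 0.576), Ier2 (-0.22, 0.527) and Junb (-0.04, 0.943) did not pass the threshold either, with 60 min NTRs of 86.1% or more in Jun and Ier2 and of 68.18% and 70.67% in Junb. In Jun and Ier2 both 60 min libraries were nonetheless below both 30 min libraries in CPM. Fos was near the floor of the data, with a mean of 23.75 reads (-0.74, adjusted p = 0.525). From 15 to 120 min Myc, Jun and Ier2 were called lower (edgeR adjusted p = 3.35e-05, 0.0012 and 0.0431), where 16.9% of all genes were. Junb and Fos were not called there (0.691 and 0.553). The long-lived transcripts Gapdh (0.04), Actb (0.01) and Eef1a1 (0.06) had adjusted p-values of 0.837, 0.942 and 0.564, and their NTRs at 60 min were between 5.2% and 11.01%. In Actb and Eef1a1 both 60 min libraries were above both 30 min libraries in CPM. From 15 to 120 min Eef1a1 (0.18, edgeR adjusted p = 1.73e-05) and Gapdh (0.14, 0.00132) were called higher, where 15.2% of all genes were. Actb (0.07, 0.0947) was not called there. Ptgs2, the inducible cyclooxygenase, was chosen after its values were seen, as a gene with a level near that of Sgk1 and a high NTR. It kept 35.6% of its old RNA, beside 17.9% in Sgk1. Its NTR went from 48.97% and 53.01% to 81.13% and 83.01% while its level was 778.8 and 813.3 CPM at 30 min and 807.0 and 737.5 CPM at 60 min, groups that overlap (-0.04, SE 0.0503, adjusted p = 0.875). The difference between Sgk1 and Ptgs2 was not tested.

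Gene lists placed the calls among their pathways. Over all genes 0.182% were called lower and 0.0174% higher, and at an unadjusted p under 0.05 5.21% (600) were lower and 3.13% (361) higher. Of 38 immediate early and serum response genes, 5 fell and 0 rose, the median log2 fold change was -0.13, and 84.2% were below 0, beside 0.00 and 49.4% over all genes. Their median NTR went from 38.6% to 78.2%. Of 20 Yap targets 3 fell (median -0.12), of 15 MAP kinase feedback genes 1 (Dusp4, median -0.08), of 22 cyclin genes 2 (median -0.04) and of 53 mitosis genes 1 (G2e3, median -0.02). No gene passed among 16 TGF-beta and BMP feedback genes, 16 p53 targets, 17 circadian clock genes and 304 numbered zinc finger protein genes, whose medians were -0.06, -0.06, -0.11 and -0.06. At an unadjusted p under 0.05 these 4 lists held 3, 4, 2 and 26 lower genes, and the zinc finger genes also held 4 higher. With so small a share of all genes called, no call in a list is not a result about its members. The 180 zinc finger genes with a mean of at least 100 reads had a median NTR of 46.3% at 60 min.

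Lists of stable transcripts lay on the other side of 0. None of 81 cytosolic ribosomal protein genes was called, 14 were higher and 0 lower at an unadjusted p under 0.05 (beside 3.13% and 5.21% of all genes), and 4 of 81 had a log2 fold change below 0 (median 0.05, from -0.04 for Rpl7l1 to 0.10 for Rpl38). Their median NTR was 5.84% at 60 min. Respiratory chain subunits (77 genes, median 0.04), proteasome subunits (35 genes, 0.04) and fibroblast extracellular matrix genes (46 genes, 0.02) also had no call, with 3, 3 and 5 higher and 0, 0 and 1 lower at that unadjusted p. The nuclear long non-coding RNAs were the list with rises: 2 of 12 were called, 2 of 12 were below 0, and the median was 0.11. No list median changed sign with other library scalings.

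The other lists had no call and medians between -0.03 and 0.00. Genes of SR proteins and Clk kinases (29) and of chromatin remodellers (61) each had a median of -0.03, mRNA decay factors (53) of -0.02 and DNA replication genes (47) of -0.01. At an unadjusted p under 0.05, 14 of the 61 chromatin genes, 5 of the 29 SR and Clk genes, 8 of the 53 decay factors and 2 of the 47 replication genes were lower, and 0, 0, 2 and 1 were higher. Cholesterol genes (24), predicted and Rik genes (629) and RNF and TRIM ligases (87) lay between -0.01 and 0.00, with 4, 26 and 8 lower and 0, 20 and 0 higher at that p. The 7 small nucleolar RNA host genes (median -0.03, none lower or higher at that p) already had a median NTR of 69.5% at 30 min and 76.3% at 60 min.

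**Figure D4:**
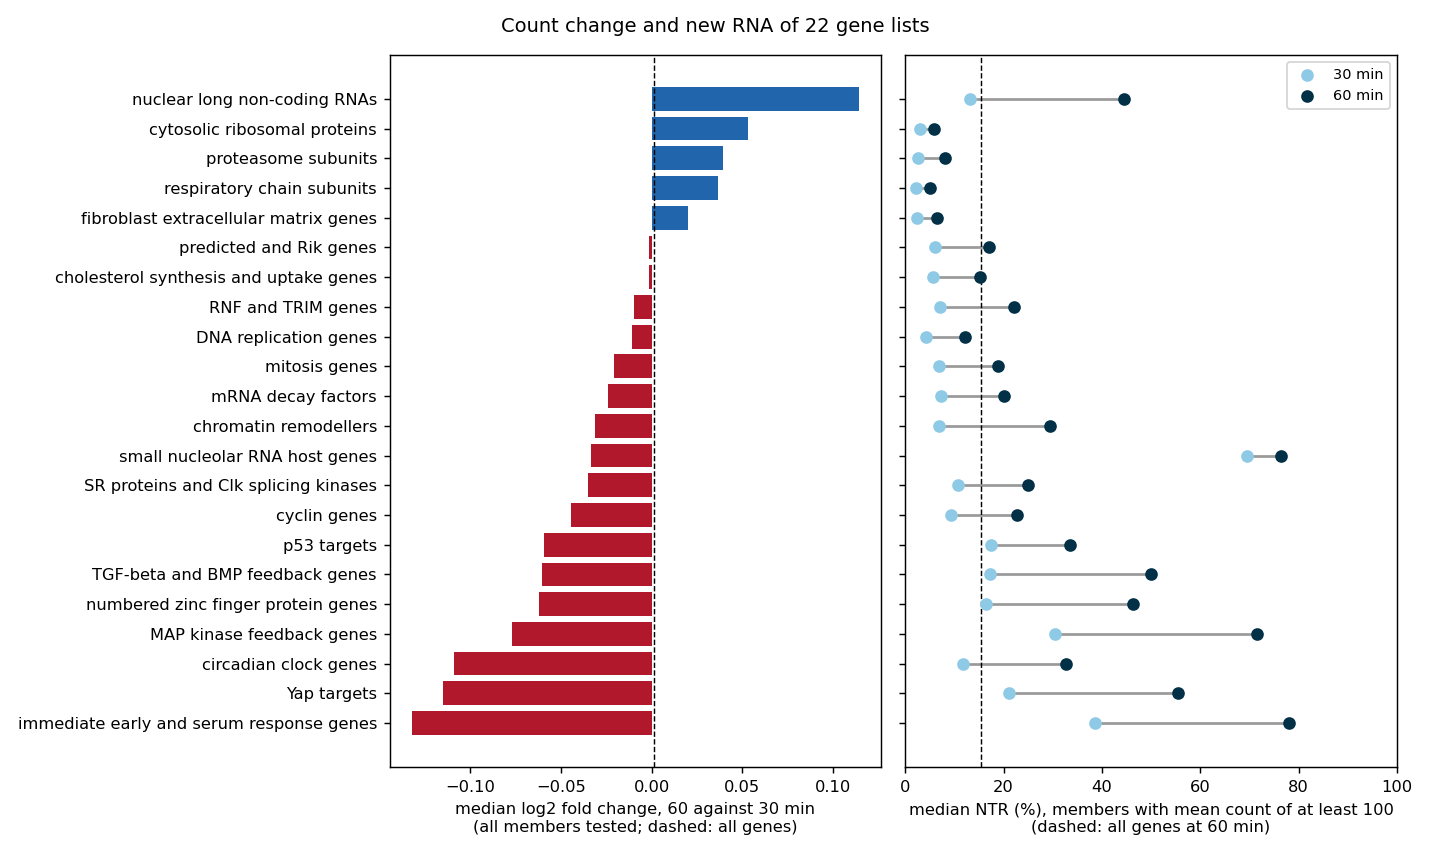
Left, median log2 fold change of 60 against 30 min over the tested members of each of the 22 gene lists, with the median of all genes dashed. Right, the median NTR in percent at 30 min (light) and 60 min (dark) of members with a mean of at least 100 reads, which for immediate early genes goes from 38.6% to 78.2% and for ribosomal proteins ends at 5.84%.

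The same genes were read in libraries that the comparison did not use. From 90 to 120 min all 21 genes that fell were again below 0, beside 5700 of all 11526 genes. By the test 6 of them fell (G2e3, Sgk1, Mcl1, Ccn2, Wsb1 and Dhx9), in a comparison that called 1.83% of all genes lower. Both risers were called higher there, where 2.02% of all genes were, with a log2 fold change of 0.58 each (edgeR adjusted p = 0.0307 for Lncpint and 0.000891 for Kcnq1ot1). From 15 to 120 min all 21 fell (median -0.53, from -1.06 for G2e3 to -0.25 for Zfp36l2), in a comparison that called 32.1% of all genes and 16.9% lower. Both risers were called higher, with 2.22 for Lncpint and 1.80 for Kcnq1ot1, where 15.2% of all genes were. These 2 comparisons share the 120 min libraries with each other, and all of them were fitted with 1 estimate of the spread.

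**Figure D5:**
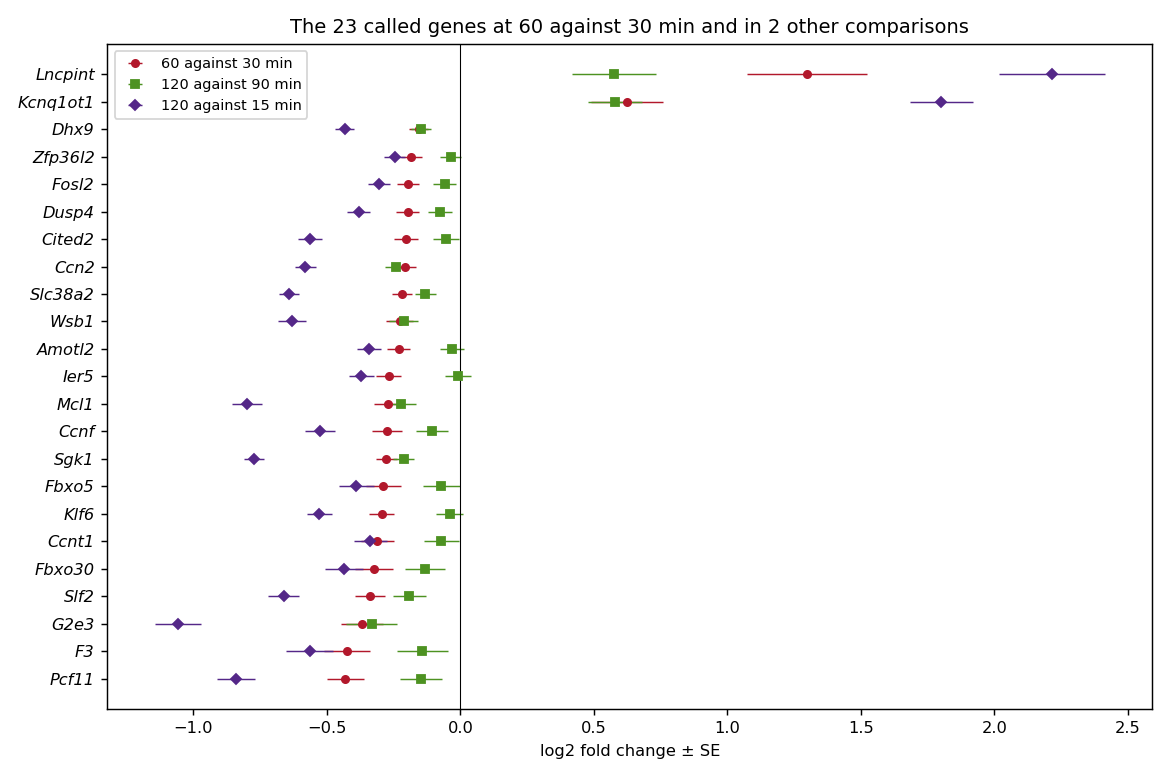
Log2 fold change with its SE for each of the 23 genes called from 30 to 60 min (red circles), and the same genes at 120 against 90 min (green squares) and 120 against 15 min (purple diamonds). The 21 genes that fell lie left of 0 in all of these, and the 2 that rose lie right of 0.

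The 60 min samples were the earliest at which a step from the group before it gave calls, but the data do not show that this step differed from the one before. From 15 to 30 min edgeR called 0 genes, with 462 of 11526 at an unadjusted p under 0.05. DESeq2 also called 0, with 65 of 16873. The difference between the steps, which share the 30 min libraries, was tested in the same fit. It gave 0 genes, with 498 of 11526 at an unadjusted p under 0.05, and DESeq2 gave 0, with 77 of 16873. From 15 to 30 min 15 of the 21 genes that fell later were below 0, beside 5788 of all 11526 genes. The 21 had a median of -0.04 there (from -0.14 for Sgk1 to 0.10 for F3). From 60 to 90 min, a comparison that shares the 60 min libraries, the fit called 20 genes (0.174%). Of the 21 genes 19 were below 0 there, beside 5789 of all 11526 genes. By the test 3 of them were lower, where 0.156% of all genes were. From 90 to 120 min it called 444 (3.85%).

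At the edge of the threshold, Cited2 (adjusted p = 0.0391), Fbxo5 and Dhx9 (both 0.0498) were inside. Outside lay Klf3 (log2 fold change -0.22) and Malat1 (0.35), both with an edgeR adjusted p of 0.0605, and Pik3r1 (0.0656) and E2f7 (0.0675).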

How the data were processed

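Libraries were grouped by the labels' titles, and each of the table's columns was matched to the library it names (0 columns of other samples). Per the submitters' processing notes, cutadapt, Bowtie2 2.3.0 and STAR 2.7.10b were among the tools. No source used here gives their roles, the build or the use of strand. The authors deposited estimated counts per gene, not scaled between libraries. As 20.4% of values were not whole (tolerance 1e-06), they were rounded. The authors deposited the NTR as a fraction (posterior maximum, with a 90% interval per the file headers). The deposited alpha and beta columns, each a score, were not used.

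Counts of the 10 labelled libraries were fitted with edgeR 4.0.16 in R 4.3.3 (filterByExpr, TMM factors 0.974 to 1.016, quasi-likelihood, no block, common biological coefficient of variation 2.54%), with 60 minus 30 min as the contrast. The unlabelled libraries were left out. DESeq2 1.42.0 was the other tool. The SE is the absolute log2 fold change over the root of F. CPM use TMM library sizes. Medians of NTR are means over libraries of each library's median over genes, and for gene sets medians of the gene means. With 2 against 2 libraries an exact permutation p cannot go below 0.333, so NTR values were described and not tested. Other settings were changes of scaling, filter, tool, libraries and block, and leaving out each library.

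Genes and lists were chosen with earlier results of these data known. Named were the 12 largest falls and rises among the called genes that had a mean of at least 100 reads and no overlap in CPM (1 rise qualified, Kcnq1ot1), called list members (at most 4 per list), Sgk1, Lncpint, Fos, Jun, Junb, Ier2, Myc, Gapdh, Actb and Eef1a1. Dhx9, Cited2, Wsb1, Slc38a2 and Zfp36l2 complete the called genes and were named after their values were seen, as were Ptgs2, the genes at the threshold and those at the ends of list ranges. Locations and 3′ UTRs come from GENCODE M21 (GRCm38) by Ensembl ID (11518 of 11526 found), and not from the authors' build. Figures were drawn with matplotlib 3.10.9 in Python 3.11.15.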

Additional observations from a re-analysis of the deposited data

How the results depend on the processing

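The 23 genes called became 27 with library size alone, 21 with RLE scaling and 26 with a mean count of at least 100. Larger moves were 12 with DESeq2 (which gave an adjusted p to 4137 genes), 53 with no filter on low counts (9 higher, 44 lower), 13 with the 4 libraries only and 0 with all 12 libraries. Leaving out 1 library gave 1 to 32 genes: 7 without 30 min replicate A, 8 without 30 min replicate B, 1 without 60 min replicate A and 32 without 60 min replicate B. Beyond the settings themselves, the cause was not tested. With a replicate block 43 genes were called (3 higher, 40 lower), the 23 among them, and with the block in the 4 libraries only, a setting chosen after seeing the data, 8. The labels do not say what libraries of the same letter share. Deviations of A from B correlated between groups by -0.009 to 0.070 (0.041 for 30 and 60 min). As these correlations run over all tested genes, they cannot exclude an effect of the letter on some genes. The difference between neighbouring steps gave 0 genes in each setting run. Each called gene kept its direction wherever it was fitted. Sgk1 stayed called in 11 of 13 settings, Ier5, Klf6, Mcl1, Pcf11, Slc38a2 and Slf2 in 10 and Fbxo5 in 4. Leaving out 1 library, Gapdh ran from -0.01 (without 30 min replicate B, edgeR adjusted p = 0.975) to 0.09 (without 30 min replicate A) and Junb from -0.09 (without 60 min replicate A) to 0.03 (without 60 min replicate B, 0.965), neither being called. The median NTR gain was 7.6 points at a minimum mean of 1000 reads. Where an arm held 1 library, it was assumed to vary like the other groups. At these depths, low genes such as Fos and Lncpint rest on few counts.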

Other observations

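The largest gains in NTR belonged to genes of low level whose counts passed no threshold. They were looked up after the values were seen. Zfp84, a zinc finger protein gene, went from 33.71% and 32.74% at 30 min to 95.44% and 100% at 60 min, a gain of 64.5 points, while its level was 14.33 and 15.81 CPM and then 12.82 and 14.02 CPM (log2 fold change -0.15, edgeR adjusted p = 0.797). Irx5, a homeobox gene, gained 62.0 points and Zbtb10, a zinc finger gene, 61.8.

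By the CPM of new RNA, Ahnak, which encodes a very large scaffold protein, gained most, 460.1 CPM. Its NTR went from 11.24% and 12.34% to 30.71% and 31.93%. Its level was 2288, 2178, 2252 and 2363 CPM in the 4 libraries (log2 fold change 0.05, edgeR adjusted p = 0.783). The chaperone gene Hsp90ab1 gained 261.0 CPM, Eef1a1 231.5, the tubulin gene Tubb5 228.8 and Ptgs2 227.2 CPM. Sgk1, at 197.1 CPM, was the only called gene among the 15 largest gains.

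Malat1, an abundant nuclear RNA, was at 1125 and 1373 CPM at 30 min and at 1839 and 1350 CPM at 60 min, groups that overlap. Its NTR went from 12.02% and 13.31% to 17.56% and 20.21%. The mean old RNA of Malat1 went from 1090 to 1297 CPM, which old RNA cannot do as an amount. Malat1 was called higher from 60 to 90 min (0.39, edgeR adjusted p = 0.0288), where 0.0174% of all genes were. The same held from 90 to 120 min (0.62, 7.6e-06) and from 15 to 120 min (1.62, 3.57e-17), where 2.02% and 15.2% were.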
